A study of Mus musculus with 38 samples.

Results

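The B2 family comprises short interspersed elements (SINEs) of the mouse genome, and its copies were followed here through every bulk RNA-seq experiment of a study of Trim28 loss in the brain. Members were taken by annotation: the 5 subfamilies whose family name is B2, out of 1153 transposable element (TE) subfamilies with counts, and their individual copies outside chrX and chrY. Of 3494634 TE copies in the table of uniquely mapped reads, 372923 were B2 copies, 23037 of these lay on chrX or chrY and were left out, and 349886 remained. The subfamilies B2_Mm1a, B2_Mm1t, B2_Mm2, B3 and B3A contributed 17627, 21908, 84851, 137690 and 87810 copies. A copy had a median length of 178 bases, 44.5% of the copies were intergenic, 52.3% intronic and 3.2% exonic, and 45.8% had at least 1 read in some library.

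The study asked whether Trim28 is needed to keep TEs silent in neural progenitor cells (NPCs) and in adult neurons, and 32 bulk libraries in 5 experiments bear on it. NPC cultures were grown from the embryonic day 13.5 forebrain of Rosa26-Cas9 knock-in mice and received a lentiviral guide to exon 3, 4 or 13 of Trim28 (Trim28-KO, 6 libraries, 2 per guide) or to lacZ (control, 2 libraries), and nuclear-RFP+ cells were sorted 10 days after transduction. In the Cas9-GFP and Stop-Cas9-GFP experiments, AAV5 vectors carrying the Trim28 guides, singly or all together, or a lacZ guide for the control, were injected into adult mice, and RFP+ nuclei were isolated 2 months later, giving 4 Trim28-KO libraries and a single control library per experiment. In the Cas9-GFP mice, injected in the striatum, every cell carries Cas9 and the Synapsin promoter drives the H2B-RFP reporter, while in the Stop-Cas9-GFP mice Cas9-GFP and the reporter are switched on by Cre from a further vector, which Synapsin restricts to neurons. For the Trim28-flox experiment the forebrain of adult floxed Trim28 mice (+/- and +/+) was co-injected with AAV vectors for Cre or for a nuclear GFP, both driven by Synapsin. GFP+ nuclei were taken after 2 months (4 libraries labelled Trim28-KO and 4 labelled control). The labels name AAV.Cre for these animals as a whole, and do not give the vector and genotype of each control. In the Emx1-Cre experiment cortex was taken at 3 months from Emx1-Cre +/-; Trim28-fl +/+ mice (Trim28-KO, n = 3) and from Emx1-Cre +/-; Trim28-fl +/- mice (control, n = 3), bred from sires with a gtRosa allele, which the labels do not give for each animal. By these labels both groups carry Cre, which Emx1 drives in the dorsal forebrain lineage, and the controls can lose 1 allele of Trim28, although a legend of the study calls the controls Cre-negative. Libraries held 8790346 to 25345083 gene counts (median 17398946) and 86329 to 444554 uniquely mapped B2 reads, which made up 10.9% to 18.1% of the reads on TE copies. The study's methods call the NPC replicates biological, but the labels do not say which samples came from separate cultures or animals, and p-values measure the spread between these samples.

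B2 elements are derived from a tRNA gene and carry their own promoter for RNA polymerase III inside the element, made of an A box and a B box that the factor TFIIIC binds. The older B3 and B3A elements are their relatives. A B2 sequence can also be read as part of a longer RNA polymerase II transcript when it lies in an intron, an exon or a transcribed intergenic stretch, and the polyadenylated RNA sequenced here does not separate these sources. Trim28 is the corepressor that KRAB zinc finger proteins bring to TEs, where the histone methyltransferase Setdb1 deposits H3K9me3, and in the mouse this system is best known for silencing endogenous retroviruses with long terminal repeats (LTRs).

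The following copies are shown because the comparisons below turn on them: the first 3 were higher after loss of Trim28 both in NPCs and in Emx1-Cre cortex, the next 3 were higher in Emx1-Cre Trim28-KO cortex and lower or low in the Trim28-flox libraries labelled Trim28-KO, and the last 2 were lower in Emx1-Cre Trim28-KO cortex. Sequences are those of the GRCm38 RefSeq assembly, on the strand of the copy, and capitals mark a match to TGGCNNAG, the first letters of the A box, or to the B box letters GTTCNANNC.
B2_Mm1t_dup19503: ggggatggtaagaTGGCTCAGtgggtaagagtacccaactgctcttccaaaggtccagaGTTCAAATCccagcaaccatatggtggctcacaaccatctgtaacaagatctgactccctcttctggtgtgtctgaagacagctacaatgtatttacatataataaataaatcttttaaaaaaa
B2_Mm1t_dup19462: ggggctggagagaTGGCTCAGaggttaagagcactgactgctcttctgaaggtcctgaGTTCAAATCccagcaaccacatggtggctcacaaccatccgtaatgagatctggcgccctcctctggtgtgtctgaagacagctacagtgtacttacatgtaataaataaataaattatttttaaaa
B2_Mm1a_dup2286: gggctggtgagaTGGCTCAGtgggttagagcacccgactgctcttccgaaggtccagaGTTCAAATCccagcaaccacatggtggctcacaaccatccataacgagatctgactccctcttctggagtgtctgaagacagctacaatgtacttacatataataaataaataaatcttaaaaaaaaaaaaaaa
B2_Mm2_dup57102: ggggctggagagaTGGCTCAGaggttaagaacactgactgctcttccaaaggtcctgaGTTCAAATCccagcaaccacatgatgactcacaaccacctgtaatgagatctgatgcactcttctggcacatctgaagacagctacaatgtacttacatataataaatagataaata
B2_Mm2_dup62190: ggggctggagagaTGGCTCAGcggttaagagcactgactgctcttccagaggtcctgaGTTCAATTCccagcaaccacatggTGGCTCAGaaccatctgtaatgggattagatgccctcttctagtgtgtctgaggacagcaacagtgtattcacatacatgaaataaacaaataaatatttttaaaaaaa
B3_dup71023: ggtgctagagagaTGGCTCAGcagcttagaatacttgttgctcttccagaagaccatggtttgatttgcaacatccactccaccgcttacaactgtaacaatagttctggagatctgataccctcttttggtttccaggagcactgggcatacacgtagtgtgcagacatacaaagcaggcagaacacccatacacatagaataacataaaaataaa
B2_Mm1a_dup6729: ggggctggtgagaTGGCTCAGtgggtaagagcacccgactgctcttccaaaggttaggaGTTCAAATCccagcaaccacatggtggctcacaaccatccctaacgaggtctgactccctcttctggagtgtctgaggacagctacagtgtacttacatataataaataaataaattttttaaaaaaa
B2_Mm1a_dup6686: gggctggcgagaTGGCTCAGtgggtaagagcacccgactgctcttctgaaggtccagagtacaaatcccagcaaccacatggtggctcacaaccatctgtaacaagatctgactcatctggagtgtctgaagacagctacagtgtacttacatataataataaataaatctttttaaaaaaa

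The A box letters were found in all 8 copies, starting at base 13 or 14 and with a further match in B2_Mm2_dup62190, and the B box letters in 6 of them, starting at base 59 or 60. Over global alignments the 7 Mm1a, Mm1t and Mm2 copies were 78.8% to 90.2% identical to each other and 56.4% to 63.1% identical to B3_dup71023, in which the B box letters were not found. Across all 349259 B2 copies on assembled chromosomes, 38.0% held the A box letters, 33.0% the B box letters and 43.7% the polyadenylation letters AATAAA, searched on the strand of the copy. The A box share was 80.1% in B2_Mm1a, 71.0% in B2_Mm1t, 54.5% in B2_Mm2, 26.4% in B3 and 23.6% in B3A. The B box share was 83.8%, 78.3%, 62.3%, 18.3% and 6.33% in the same order. The A box shares depend on how many letters are asked for: when the same letters had to be followed by NGG, 7 of the 8 printed copies and 21.0% of all B2 copies matched, from 70.7% of B2_Mm1a to 7.64% of B3A.

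Trim28 itself was read first in every library, in counts per 1000000 normalized gene counts (CPM). The 6 NPC Trim28-KO libraries held 36.8, 39.6, 42.2, 53.3, 62.3 and 73.5 CPM and the 2 controls 157 and 204 CPM. In Emx1-Cre cortex the Trim28-KO libraries held 6.07, 8.52 and 8.86 CPM and the controls 19.0, 20.8 and 21.4 CPM. The Trim28-flox libraries labelled Trim28-KO held 130.4, 131, 136 and 146 CPM, and those labelled control 25.6, 28, 28.1 and 31.6 CPM. Groups did not overlap in any of these 3 experiments, but in the Trim28-flox experiment the level went against the labels: all 4 libraries labelled control were low.

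The log2 fold change of Trim28 was -1.82 (SE 0.253) in NPCs, with an adjusted p of 0.031 in edgeR's quasi-likelihood test that stayed under 0.05 in 2 of 8 fits without a single library, -1.39 (SE 0.15, adjusted p = 3.64e-04) in Emx1-Cre cortex and 2.26 (SE 0.102, adjusted p = 2.73e-06) in the Trim28-flox experiment. The Trim28-flox and Emx1-Cre changes differed by 3.69 (SE 0.261, adjusted p = 8.8e-11) with the libraries taken as labelled, and were opposite in sign. In the Cas9-GFP nuclei the 4 Trim28-KO libraries held 93.7 to 105 CPM against 143 CPM in the single control (-0.51, adjusted p = 0.415), and in the Stop-Cas9-GFP nuclei 88.4 to 127 CPM against 105 CPM (0.0, adjusted p = 1.0). Neither of the last 2 experiments passed the test for Trim28, and in the Stop-Cas9-GFP libraries the Trim28-KO and control levels overlapped. Wherever a direction is given below for the Trim28-flox experiment, it is that of the libraries as labelled.

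**Figure D1:**
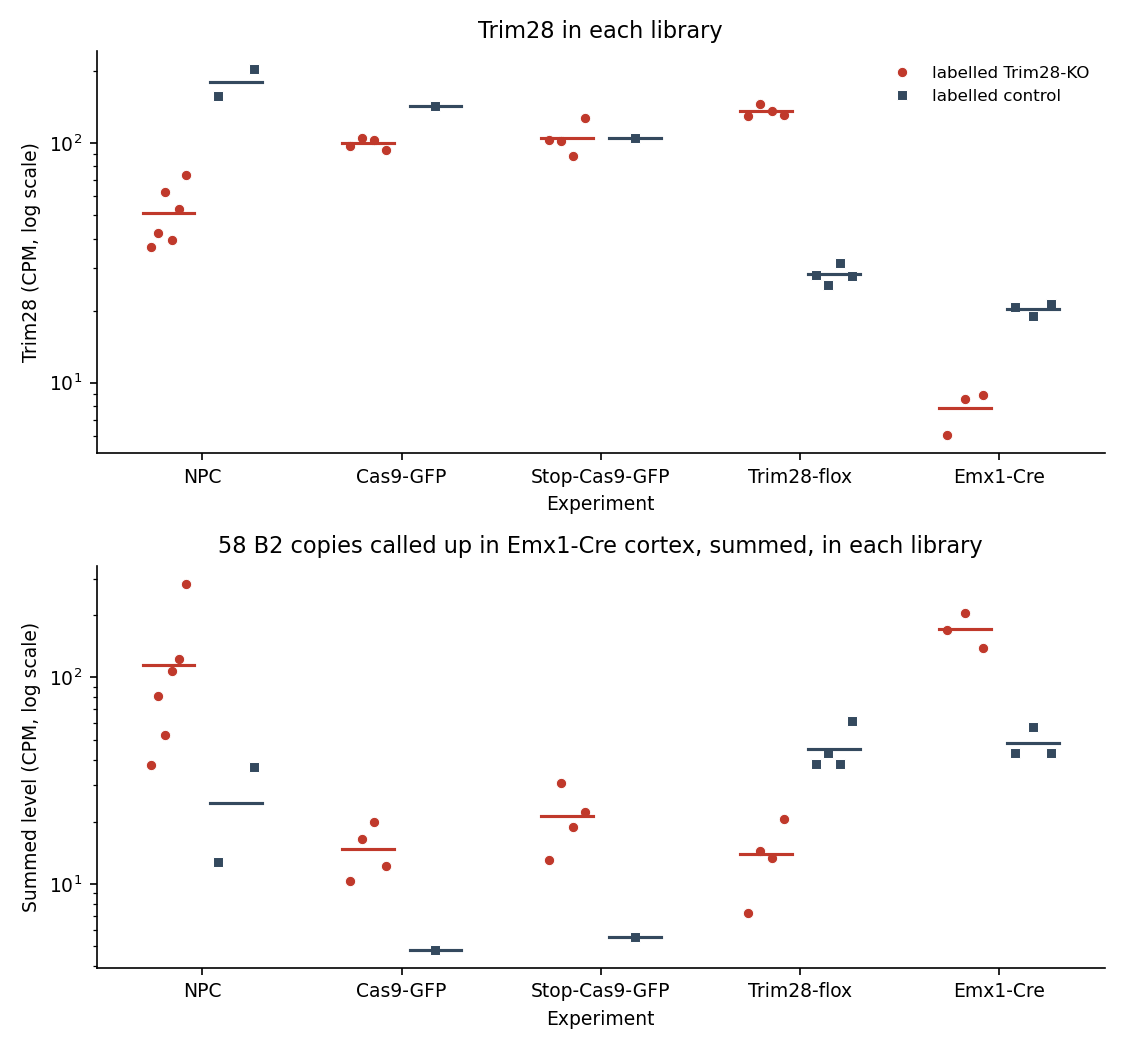
Trim28 (upper panel) and the summed level of 58 B2 copies called up in Emx1-Cre cortex (lower panel) in each of the 32 bulk libraries, in CPM on log axes; points are libraries, horizontal bars group means. The 4 Trim28-flox libraries labelled control sit at 25.6 to 31.6 CPM for Trim28, below all 4 labelled Trim28-KO, and above them for the B2 copies.

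At the level of whole subfamilies, counted with multi-mapping reads and given as CPM of TE counts, B2_Mm1a, B2_Mm1t and B2_Mm2 were higher in Emx1-Cre Trim28-KO cortex, and B3 and B3A did not pass the test. B2_Mm1a stood at 22710.3, 25243 and 31634 CPM in the Trim28-KO libraries and at 16229, 19016 and 21110.4 CPM in the controls. The lowest Trim28-KO library was thus above the highest control, and the log2 fold change was 0.50 (SE 0.115, adjusted p = 0.0252 in edgeR). B2_Mm1t averaged 17483 ± 1767 (SD, n = 3) against 13939.7 ± 1232 CPM (0.33, SE 0.0785, adjusted p = 0.0326) and B2_Mm2 35843 ± 2287 against 31023 ± 381 CPM (0.21, SE 0.0496, adjusted p = 0.0316). For B3 and B3A the values were -0.06 and -0.04 (adjusted p = 0.686 and 0.743). When 1 library at a time was left out, the changes were 0.36 to 0.6 for B2_Mm1a, 0.25 to 0.39 for B2_Mm1t and 0.16 to 0.26 for B2_Mm2, and the adjusted p stayed under 0.05 in 2, 2 and 1 of 6 fits. In sums of uniquely mapped reads the changes were 0.34 (adjusted p = 0.036), 0.18 (adjusted p = 0.0865) and 0.04 (adjusted p = 0.765) in the same order, and for B2_Mm2 the groups overlapped, at 1839, 2016 and 2096 CPM against 1761, 1842 and 1957 CPM.

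No B2 subfamily was called in any experiment, a call being an adjusted p under 0.05 together with a log2 fold change beyond 0.5. The share of all tested TE subfamilies called up was 3.95% (29 of 734) in Emx1-Cre cortex, 0.999% (8 of 801) in NPCs and 0.0% in each of the other 3 experiments. B2_Mm1a in Emx1-Cre cortex lay at the threshold, and with library sizes taken from the genes its change was 0.59 (SE 0.101, adjusted p = 7.70e-04) and it was called; the median of all TE subfamilies moved to 0.08 on that scale.

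In NPCs the B2_Mm1a level ran from 11327 to 92945 CPM in the Trim28-KO libraries (median 23901) and was 13370.2 and 30192 CPM in the controls. The groups overlapped and the change of 0.65 (SE 0.715) had an adjusted p of 0.892. Without the library at 92945 CPM the change was 0.04, and without the control at 30192 CPM it was 1.38. In the Trim28-flox libraries B2_Mm1a was at 10049, 11873, 12554 and 15037 CPM in the libraries labelled Trim28-KO and 15409, 15429.8, 16613 and 16699 CPM in those labelled control. These groups did not overlap on this scale but did in CPM of gene counts, where the libraries labelled Trim28-KO reached 1248 CPM and those labelled control began at 1013 CPM, and the change of -0.37 did not pass the test (adjusted p = 1.0). In the Cas9-GFP and Stop-Cas9-GFP nuclei the change of every B2 subfamily was within 0.13 of 0, but with library sizes from the genes the 5 Cas9-GFP values were 0.2 to 0.29 in place of -0.11 to -0.03.

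**Figure D2:**
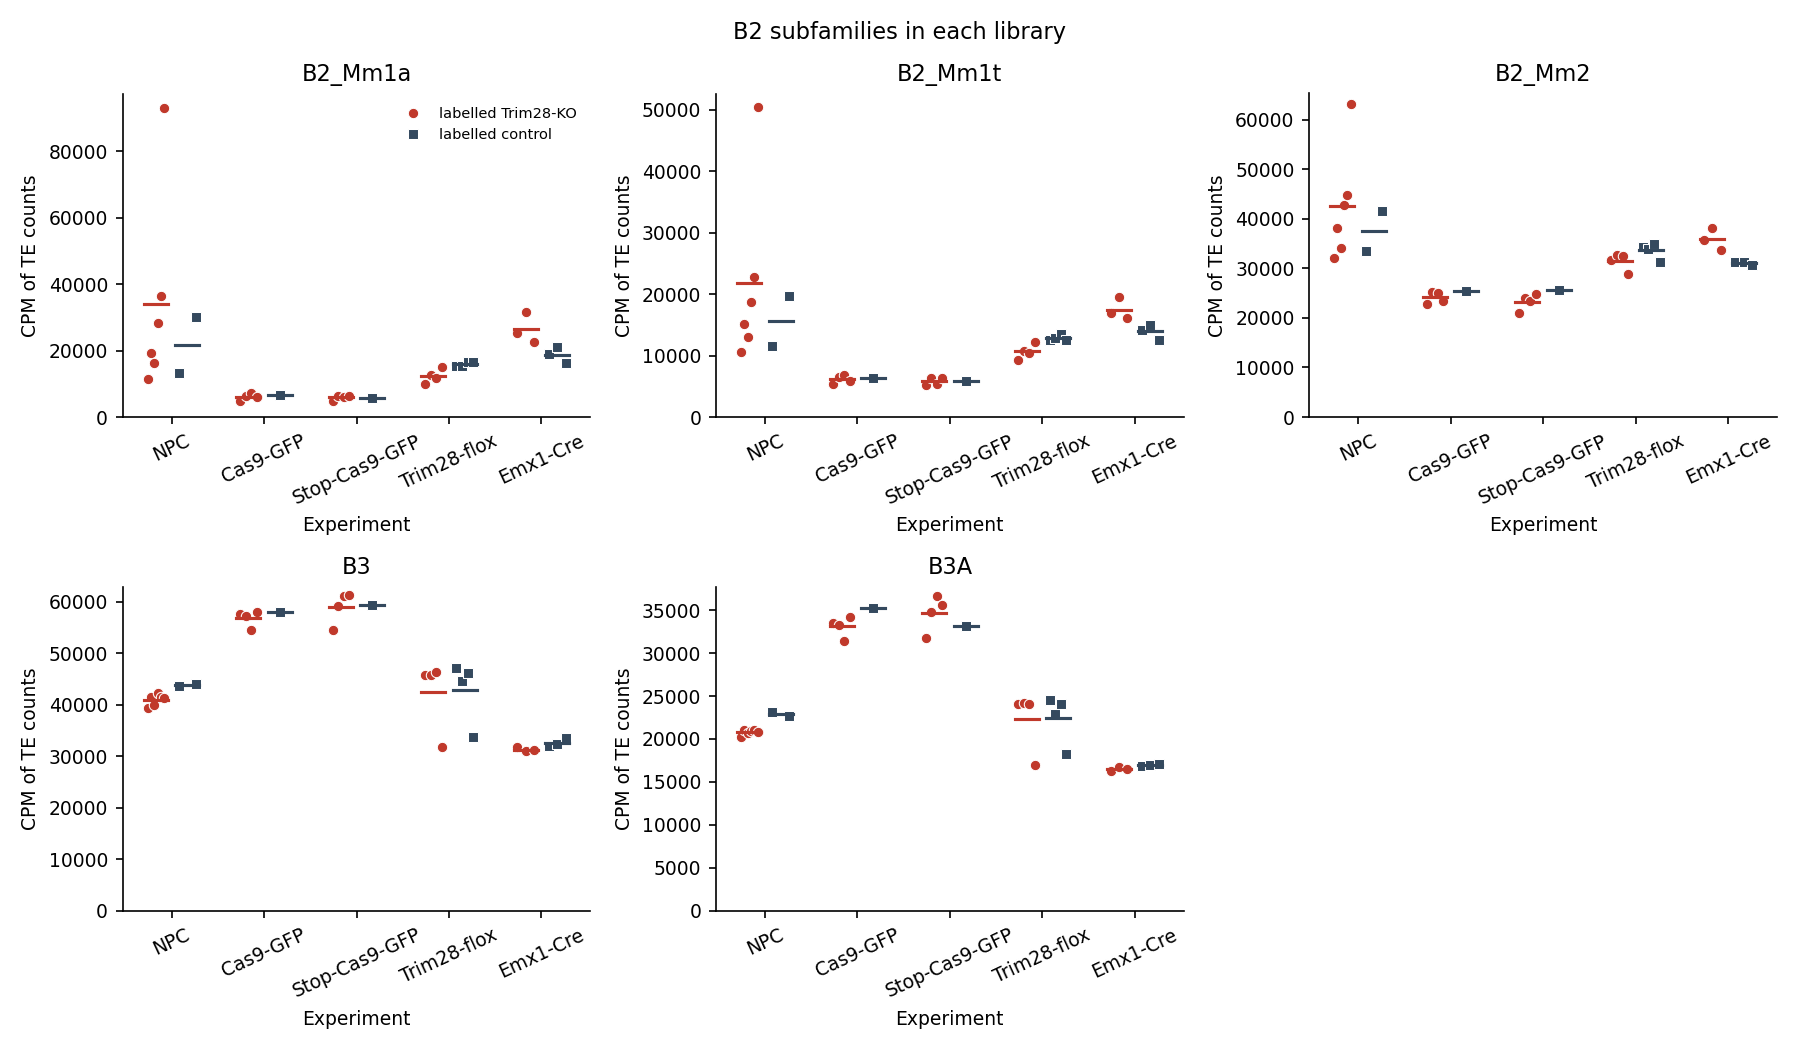
Level of each B2 subfamily in each bulk library, in CPM of TE counts on axes that start at 0; points are libraries and horizontal bars are group means. B2_Mm1a is higher in the 3 Emx1-Cre Trim28-KO libraries (22710.3 to 31634) than in the 3 controls (16229 to 21110.4), and an NPC Trim28-KO library stands apart at 92945.

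Summed over all copies, uniquely mapped B2 reads were higher in the Trim28-KO libraries of NPCs, both Cas9 experiments and Emx1-Cre cortex without overlap. The adjusted tests of these sums, given below, could not have passed whatever the differences. Scaled to TE counts in place of gene counts, the log2 differences were 0.09 in NPCs, 0.0 in Cas9-GFP nuclei, -0.01 in Stop-Cas9-GFP nuclei and 0.04 in Emx1-Cre cortex. The sum was 7000.1 ± 199 CPM in Emx1-Cre Trim28-KO cortex and 6496 ± 246 CPM in its controls (SD, n = 3 each, log2 difference 0.11), and the intergenic copies alone held 1472, 1504 and 1527 CPM against 1208, 1225 and 1264 CPM (0.28). The intergenic sums did not overlap, and an exact two-sided permutation test gave p = 0.1, the smallest that 3 against 3 libraries allow. In NPCs the sum was 12578 ± 1505 CPM (n = 6) against 10371 ± 67.4 CPM (n = 2), with all 6 Trim28-KO libraries above both controls (log2 difference 0.27, exact two-sided permutation p = 0.107, without regard to the number series of the sample names). The NPC intergenic copies held 1402 to 3257 CPM (median 1573) against 1144 and 1299.9 CPM (0.49, p = 0.25 in the same exact test), and the intronic ones differed by 0.31. Without the library at 3257 CPM the intergenic difference was 0.3. In Cas9-GFP nuclei the sum was 24601 to 28083 CPM in the 4 Trim28-KO libraries and 22479.8 CPM in the control (0.23). Over the 20 sums tested (all, exonic, intronic and intergenic in each experiment) the lowest adjusted p of the exact permutation tests was 0.364. The smallest p that the exact permutation test allows is 0.1 for the 4 sums of Emx1-Cre cortex and 0.2 for the 8 of the single-control experiments. The smallest exact permutation p is 0.0357 for the 4 sums of NPCs and 0.0286 for the 4 of the Trim28-flox experiment. After adjustment over the 20 sums none of these floors falls under 0.05, so no sum could have passed whatever its difference. In bulk samples, fewer cells of a type and less RNA per cell cannot be told apart.

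Individual copies were then tested one by one together with the copies of every other TE class. Emx1-Cre cortex gave most of the called B2 copies: 59 of 1746 tested copies (3.38%) were upregulated and 4 (0.229%) downregulated, beside 2.67% and 0.254% of all 14556 tested TE copies. The tested copies were those with enough reads, which is 1746 of the 349886 B2 copies, and a copy that is silent in controls could enter through its Trim28-KO reads alone, so the count of upregulated copies does not describe the silent rest. Over all tested B2 copies the median log2 fold change was 0.04, beside 0.01 over all TE copies. The upregulated share followed the subfamilies: 14.8% of B2_Mm1a (25 of 169), 4.86% of B2_Mm1t (7 of 144), 3.87% of B2_Mm2 (17 of 439), 1.17% of B3 (8 of 681) and 0.639% of B3A (2 of 313). The median log2 fold change was 0.32 in B2_Mm1a, where 77.5% of tested copies were above 0, and 0.07, 0.07, 0.0 and -0.01 in the other subfamilies, in the same order. For comparison, 0.66% of tested B1 (family Alu) copies, 1.13% of B4, 3.64% of L1 and 9.23% of ERVK copies were upregulated in the same fit.

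**Figure D3:**
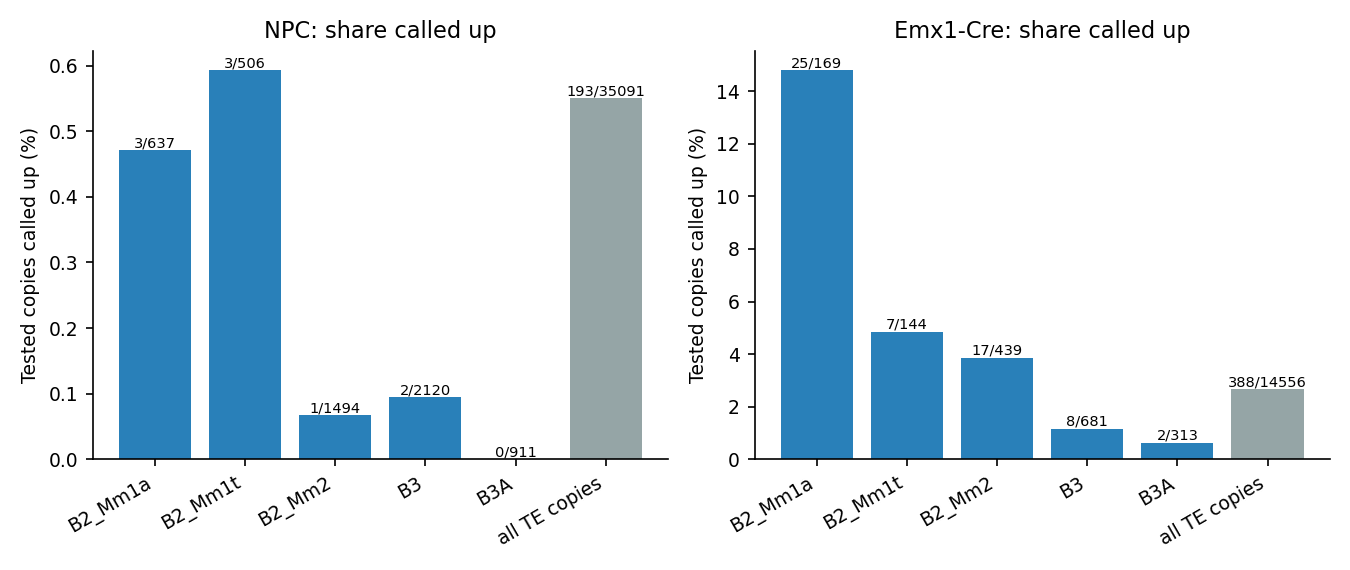
Share of tested copies called up (%) in each B2 subfamily and in all TE copies, in NPCs (left) and Emx1-Cre cortex (right), with called and tested copies above each bar; the vertical axes differ. In Emx1-Cre cortex the share falls from 14.8% in B2_Mm1a to 0.639% in B3A, and all TE copies stand at 2.67%.

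The 59 upregulated copies of Emx1-Cre cortex lay at 58 loci more than 10 kb apart, and log2 fold changes ran from 0.88 to 10.41. In 54 of them every Trim28-KO library exceeded every control, a pattern that 8.02% of all tested B2 copies showed. B2_Mm1a_dup1104, singled out after its values were seen for the smallest change, averaged 28.3 ± 7.47 CPM against 15.4 ± 2.08 CPM (0.88, SE 0.168, adjusted p = 6.49e-04). B3_dup48540, also singled out afterwards, rested on a single library: it held 2.16, 2.99 and 178 CPM in Trim28-KO and 1.52, 3.2 and 6.25 CPM in controls, so that the groups overlapped.

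The largest fitted change, which depends on the prior count where a group has no read, was at B2_Mm1a_dup2286 (chr2:167365362-167365553, + strand), an intergenic copy 16.2 kb from B4galt5, a galactosyltransferase gene. It held 6.01, 8.46 and 11.2 CPM in the Emx1-Cre Trim28-KO libraries (441 reads in all) and no read in the 3 controls. Every Trim28-KO library was far above the controls, at least 63.3-fold higher by the group means when 3 reads per library are granted to the controls (adjusted p = 9.45e-15). In NPCs the same copy ran from 3.44 to 32.0 CPM (median 15.6) in Trim28-KO and was at 0 and 0.0497 CPM in controls. With 1426 reads against 1, the ratio was 563 (95% counting interval 101 to 22255, adjusted p = 0.0049), and the groups did not overlap. In the Trim28-flox libraries it stayed at or below 0.142 CPM in all 8.

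B2_Mm1t_dup19503 (chr15:41991768-41991950, - strand), 39.4 kb from the predicted gene Gm5470, ran from 7.85 to 37.3 CPM (median 9.79) in NPC Trim28-KO libraries and was at 0.0537 and 0.298 CPM in controls (log2 fold change 6.23, SE 0.882, adjusted p = 0.00318). In Emx1-Cre cortex it held 2.69, 2.84 and 2.99 CPM against 0, 0 and 0.0362 CPM, which is 142 reads against 1 (ratio 196, 95% counting interval 34.6 to 7799.6, adjusted p = 8.06e-12). The Trim28-flox libraries labelled control held 2.51, 2.59, 2.87 and 3.23 CPM and those labelled Trim28-KO 0, 0, 0 and 0.111 CPM (-6.44, SE 0.721, adjusted p = 0.0362). The groups were apart in all 3 experiments, and in each the high group was the one with low Trim28. In Cas9-GFP nuclei the copy was at 0 to 1.92 CPM in the Trim28-KO libraries and in Stop-Cas9-GFP nuclei at 0.435 to 1.23 CPM, with no read in either single control.

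B2_Mm1t_dup19462 (chr15:37188915-37189099, - strand) is a further Mm1t copy of chromosome 15, 6.21 kb from the predicted gene Gm8664. It ran from 2.47 to 12.3 CPM (median 4.08) in NPC Trim28-KO libraries and was at 0.298 and 0.322 CPM in controls (3.98, SE 0.691, adjusted p = 0.014), and it held 4.26, 4.28 and 5.06 CPM against 0.0888, 0.145 and 0.272 CPM in Emx1-Cre cortex (4.75, SE 0.323, adjusted p = 1.59e-12). Among the Trim28-flox libraries it was at 2.99, 3.48, 3.96 and 5.21 CPM in libraries labelled control and at 0.222, 0.222, 0.336 and 0.76 CPM in those labelled Trim28-KO. These groups too did not overlap, but the change of -3.31 (SE 0.455) had an adjusted p of 0.0818. B2_Mm1t_dup19503, B2_Mm1t_dup19462 and B2_Mm1a_dup2286 were the copies upregulated in both NPCs and Emx1-Cre cortex, 3 of 9 in NPCs and 3 of 59 in Emx1-Cre cortex. Of the 9 NPC copies only these 3 had enough reads to be tested in Emx1-Cre cortex. Of the 59 Emx1-Cre copies 35 could be tested in NPCs.

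**Figure D4:**
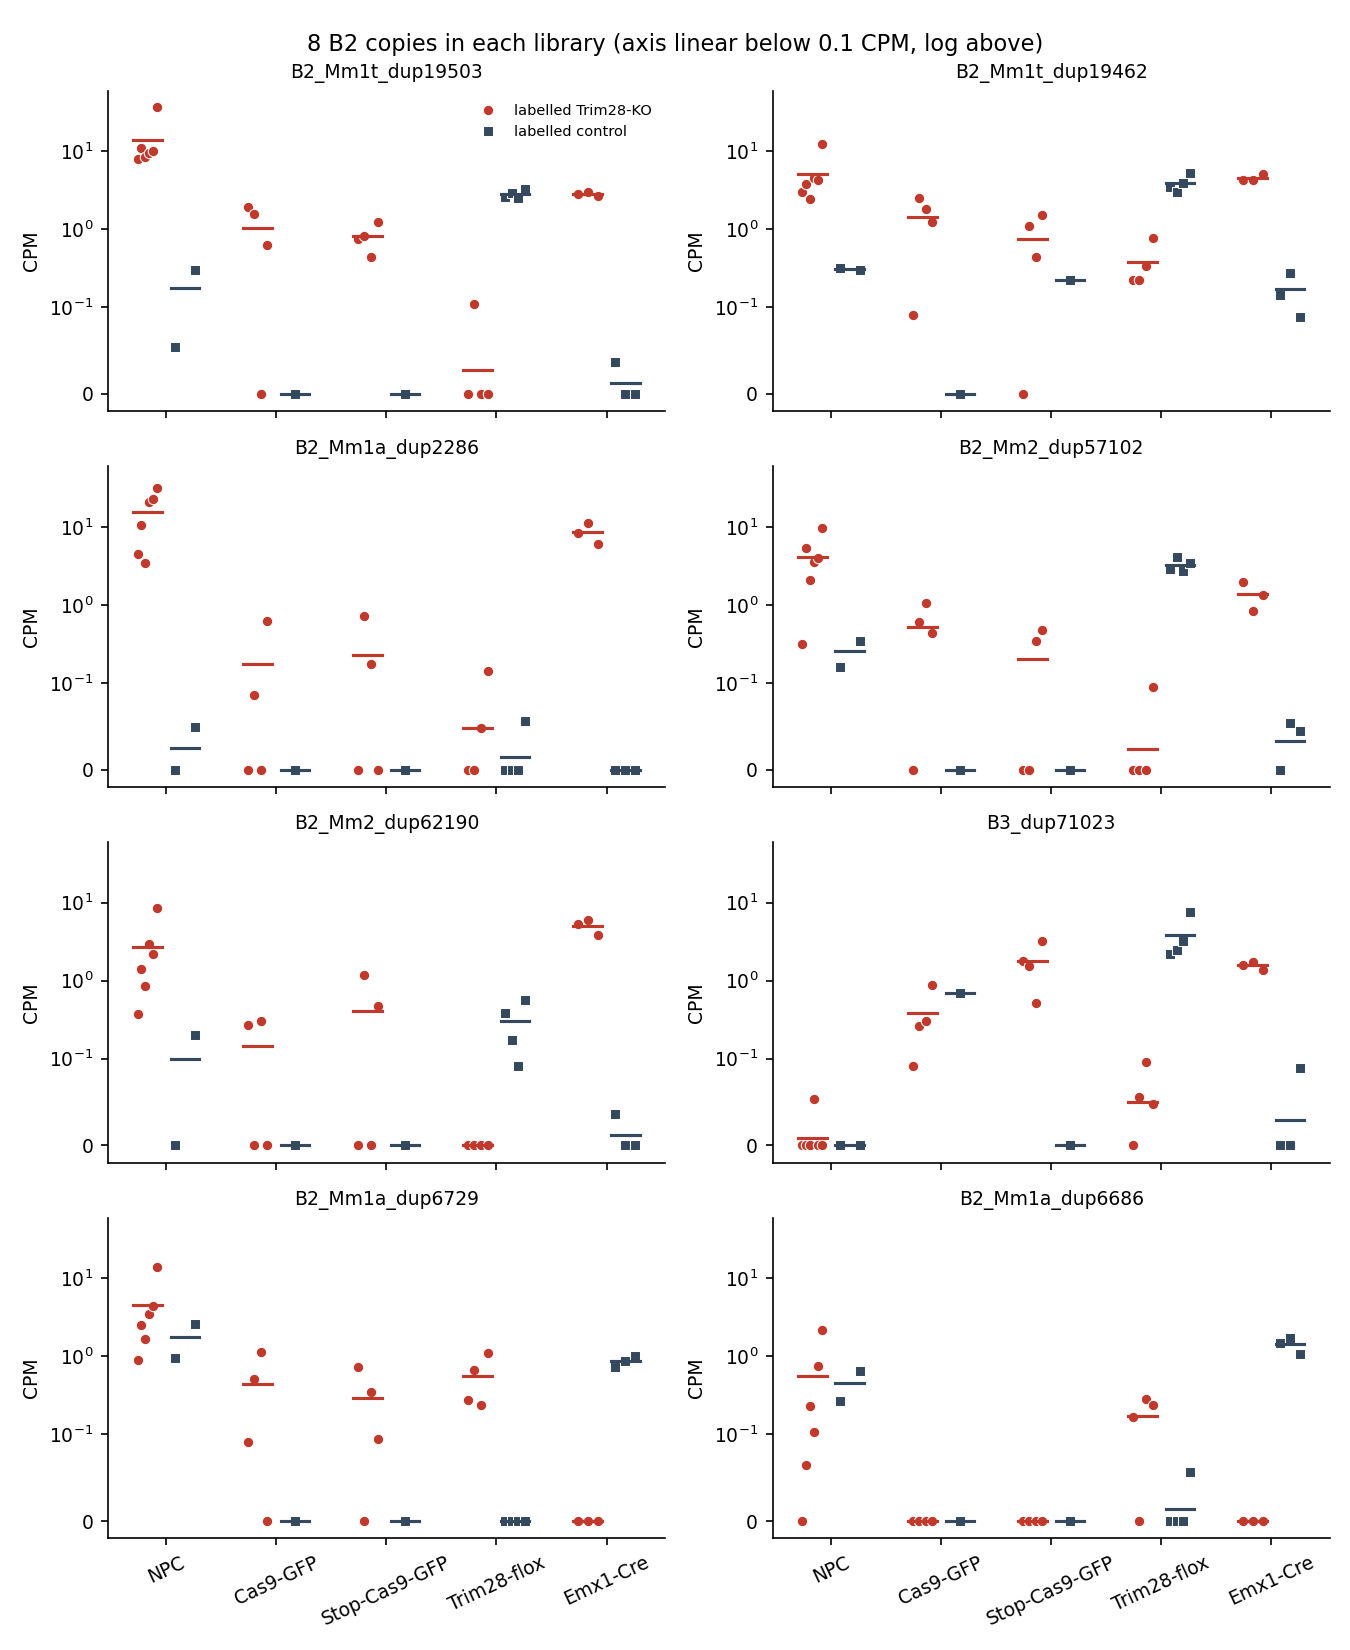
Level of the 8 printed B2 copies in each bulk library, in CPM on an axis that is linear below 0.1 and logarithmic above; points are libraries and horizontal bars group means. In Emx1-Cre cortex the first 6 copies are high in Trim28-KO and the last 2 have no read there, and B2_Mm1t_dup19503 is high in the 4 Trim28-flox libraries labelled control (2.51 to 3.23).

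Other large changes in Emx1-Cre cortex followed the same shape of near silence in controls. B2_Mm2_dup62190 (chr11:97090310-97090500, + strand, 6.43 kb from Gm11573) held 3.8, 5.28 and 5.94 CPM against 0, 0 and 0.0362 CPM, which is 256 reads against 1 (ratio 354, 95% counting interval 62.9 to 14018, adjusted p = 6.05e-14). B3_dup54414, in an intron of Slco1a5, a gene of an organic anion transporter, held 112 reads in Trim28-KO and none in controls, at least 16.7-fold higher (adjusted p = 9.77e-11). In both the groups were apart. Likewise B3_dup71029, B2_Mm2_dup62833, B2_Mm1a_dup8579 and B3_dup123517 had 81, 75, 40 and 36 reads in Trim28-KO and none in controls, which puts them at least 12.4-fold, 10.9-fold, 6.01-fold and 5.53-fold higher.

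In NPCs 9 of 5668 tested B2 copies (0.159%) were upregulated and none downregulated, beside 0.55% of all 35091 tested TE copies upregulated. An unadjusted p under 0.05 was found for 242 tested B2 copies (4.27%). The sample names fall into a low and a high number series, each with a single control and a library for every guide. A fit within a series thus has no spread between controls, and its calls compare the Trim28-KO libraries with that single control. With the series as a block 48 B2 copies were upregulated, within the low series alone 31 and within the high series 90, and DESeq2 called 26, the 9 among them. The count also rested on both controls: it was 1 without the low-series control and 2 without the high-series control, while it was 27 without the low-series guide 3 library. The median log2 fold change was 0.25 over all tested B2 copies, of which 71.0% were above 0, and 0.20 over all TE copies, and by subfamily it was 0.55 in B2_Mm1a, 0.44 in B2_Mm1t, 0.28 in B2_Mm2 and 0.17 in B3 and in B3A.

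Besides the 3 copies shared with Emx1-Cre cortex, the NPC set held 6 more. B2_Mm1a_dup16531, 13.1 kb from Tcp11, had 223 reads in Trim28-KO libraries and none in controls (at least 15.5-fold higher, adjusted p = 0.0447). B3_dup78091 and B3_dup114899 had 74 and 66 reads against none (at least 4.97-fold and 4.54-fold higher). B2_Mm2_dup13946, in an intron of the adaptor gene She, had 224 reads against 1 (ratio 88.4, 95% counting interval 15.7 to 3509). B2_Mm1a_dup15244, in an intron of Plec, the gene of the cytolinker plectin, and B2_Mm1t_dup17385, in an intron of the kinesin light chain gene Klc1, rose by 4.69 (SE 0.969, adjusted p = 0.0458) and 2.25 (SE 0.377, adjusted p = 0.0111) on the log2 scale. In all 9 the Trim28-KO libraries lay above both controls, as they did in 5.63% of tested B2 copies.

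In the 2 experiments with a single control no spread between controls exists. The p-values assume that the lone control varies like the 4 Trim28-KO libraries, and a call compares these with that 1 library. In Cas9-GFP nuclei 11 of 14946 tested B2 copies (0.0736%, beside 0.163% of all TE copies) were upregulated and none downregulated (all TE copies 0.00379%), with 1282 (8.58%) at an unadjusted p under 0.05. DESeq2 called 14 B2 copies upregulated, 3 of the 11 among them. All 11 lay inside genes, 9 in introns and 2 in exons. Of all tested B2 copies there 74.8% were intronic, 17.0% exonic and 8.16% intergenic, so this placement is near the background. Of the 11 copies, 9 had no read in the single control and 120 to 259 reads in the 4 Trim28-KO libraries. B3_dup139736, in an intron of Lrpprc, had 259 reads against none (at least 18.4-fold higher). Their summed level was 35.4, 40.6, 47.1 and 49.0 CPM in the Trim28-KO libraries and 0.981 CPM in the Cas9-GFP control, but 40.5 CPM in the Stop-Cas9-GFP control and 33.6 to 34.8 CPM in its Trim28-KO libraries, where the Cas9-GFP values are fixed by the choice of the copies and the Stop-Cas9-GFP values are not. Of the 11 copies 10 had reads in all 5 Stop-Cas9-GFP libraries, and B3_dup139736 had none in any of them. Without the library of all 3 guides together the count was 105 and without the guide 3 library it was 5. In Stop-Cas9-GFP nuclei 0 of 16204 tested B2 copies were upregulated or downregulated (0.0%, beside 0.0114% of all TE copies upregulated and 0.000881% downregulated), and 244 (1.51%) had an unadjusted p under 0.05 in edgeR; DESeq2 called none.

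In the Trim28-flox experiment 0 of 7082 tested B2 copies were higher and 3 (0.0424%) were lower in the libraries labelled Trim28-KO, and these 3 were all the TE copies called there (0.00641% of 46810). With the number series as a block 11 B2 copies were lower, and within the series of 6 libraries 12. Besides B2_Mm1t_dup19503 these were B2_Mm2_dup57102 and B3_dup71023. B2_Mm2_dup57102 (chr10:127314951-127315125, - strand, 0.803 kb from Gm6283) held 2.73, 2.93, 3.4 and 4.08 CPM in the libraries labelled control and 0, 0, 0 and 0.095 CPM in those labelled Trim28-KO, or 260 reads against 2 (ratio 126, 95% counting interval 34.5 to 1044, adjusted p = 0.0362). B3_dup71023 (chr8:124444571-124444787, - strand, 4.91 kb from the transposase-derived gene Pgbd5) held 2.21, 2.47, 3.19 and 7.59 CPM and 0, 0.0475, 0.0555 and 0.096 CPM (-6.07, SE 0.684, adjusted p = 0.0362). In both, all 4 libraries labelled control were above all 4 labelled Trim28-KO, which held for 0.904% of tested B2 copies. Of the 8 libraries 6 carry consecutive sample numbers, 3 of each label, and without any 1 of these 6 no B2 copy was called, while without the other library labelled Trim28-KO there were 5; 105 tested B2 copies (1.48%) had an unadjusted p under 0.05, and DESeq2 called 11.

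The same 3 copies were upregulated in Emx1-Cre cortex, where B2_Mm2_dup57102 held 0.826, 1.35 and 1.99 CPM against 0, 0.0444 and 0.0543 CPM (68 reads against 2, ratio 47.0, 95% counting interval 12.5 to 396, adjusted p = 1.87e-07) and B3_dup71023 held 1.35, 1.59 and 1.76 CPM against 0, 0 and 0.0888 CPM (79 reads against 2, ratio 54.6, 95% counting interval 14.6 to 458, adjusted p = 1.93e-08). In NPCs B2_Mm2_dup57102 ran from 0.32 to 9.6 CPM in Trim28-KO libraries against 0.161 and 0.348 CPM in controls, and B3_dup71023 had 1 read in a single NPC library. The test of the difference between the labelled Trim28-flox change and the Emx1-Cre change, over 221492 TE copies, gave 72 copies at an adjusted p under 0.05 (0.0325%), of which 25 were B2 copies, 23 lower and 2 higher in the Trim28-flox change. The sign of that change follows labels that the Trim28 level goes against, so the count holds for the labels only, and libraries were not regrouped by their Trim28 level to test it the other way; for B2_Mm1t_dup19503 the changes were -6.44 and 7.09, close in size and opposite in sign. The same test for NPCs against Emx1-Cre gave 9 TE copies (0.00406%), of which 1 B2 copy was lower and 1 higher. NPCs, Trim28-flox and Emx1-Cre share no control libraries.

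The 59 copies upregulated in Emx1-Cre cortex were also looked up in the other experiments. In NPCs 35 of them could be tested and 3 were called up, in the Trim28-flox experiment 20 could be tested and 3 were called down as labelled, and in Cas9-GFP and Stop-Cas9-GFP nuclei 14 and 17 could be tested and none was called. A copy near silence in a group is tested only where the other group is high, so that the signs of the tested copies are not counted here, and the sums that follow take in the untested copies too. Summed without B3_dup48540, the other 58 copies held 38.1, 38.3, 43.3 and 61.3 CPM in the Trim28-flox libraries labelled control and 7.21, 13.3, 14.4 and 20.7 CPM in those labelled Trim28-KO. In NPCs the sum ran from 37.5 to 284 CPM in Trim28-KO and was 12.8 and 36.7 CPM in controls, in Cas9-GFP nuclei from 10.3 to 19.9 CPM against 4.81 CPM, and in Stop-Cas9-GFP nuclei from 13.1 to 30.9 CPM against 5.53 CPM. In none of these experiments did the groups overlap, with the libraries labelled Trim28-KO lower in the Trim28-flox experiment and higher in the others. In NPCs this held within each number series. The low series held 37.5, 52.5 and 81.2 CPM against 12.8 CPM, and the high one 108, 123 and 284 CPM against 36.7 CPM. Summed over all B2 copies, the groups did not overlap in NPCs, Cas9-GFP or Stop-Cas9-GFP nuclei either, and overlapped in the Trim28-flox experiment. For Cas9-GFP and Stop-Cas9-GFP nuclei the comparison is with a single control. In Emx1-Cre cortex, where the copies were chosen, the sum of the 58 copies was 139.7, 169.8 and 206 CPM against 43.0, 43.3 and 57.6 CPM.

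Of the 4 copies downregulated in Emx1-Cre cortex, 3 lay on chromosome 7, which held 8.02% of the tested B2 copies, and the most strongly changed pair had no read in any Trim28-KO library. In all 4 every Trim28-KO library was below every control, as in 4.7% of tested B2 copies. B2_Mm1a_dup6729 (chr7:13015924-13016110, - strand) lies in an intron of Trim28, on the strand opposite to the gene. It had no read in the 3 Trim28-KO libraries and 0.725, 0.869 and 1.02 CPM in controls (59 reads in all), at least 4.65-fold lower (adjusted p = 3.57e-06). Of the Trim28-flox libraries, it had no read in the 4 libraries labelled control and 0.24, 0.277, 0.666 and 1.09 CPM in those labelled Trim28-KO, so that in these floxed mice the 4 libraries with low Trim28 were those without a read. In NPCs, where Trim28 was cut by Cas9, it was at 0.908 to 13.9 CPM in Trim28-KO and at 0.966 and 2.63 CPM in controls. As labelled, its change differed from that in Emx1-Cre cortex in the Trim28-flox experiment (by 13.33, SE 1.69, adjusted p = 6.08e-11) and in NPCs (by 8.51, SE 1.56, adjusted p = 0.00168).

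B2_Mm1a_dup6686 (chr7:4799923-4800104, + strand), 8.22 Mb away in an intron of Ube2s, the gene of a ubiquitin-conjugating enzyme, had no read in the Emx1-Cre Trim28-KO libraries and 1.07, 1.49 and 1.74 CPM in controls (97 reads in all), at least 7.62-fold lower (adjusted p = 5.63e-08). Ube2s itself changed by 0.2 (SE 0.196, adjusted p = 0.936). In the Trim28-flox libraries this copy was at or below 0.0566 CPM in those labelled control and at 0 to 0.288 CPM in those labelled Trim28-KO. The other 2 copies were exonic, B2_Mm2_dup37149 in Gm21984 on chromosome 7 (-1.08, SE 0.28, adjusted p = 0.0227, and 0.0756 in DESeq2), 114 Mb from the copy in Trim28, and B3A_dup51644 in 1700048O20Rik on chromosome 9 (-1.71, SE 0.392, adjusted p = 0.00591), which overlaps a downregulated ORR1D1 copy.

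By place in the genome, the upregulated copies of Emx1-Cre cortex were mostly outside exons: 34 of 390 tested intergenic copies (8.72%), 21 of 344 intronic copies (6.1%) and 4 of 1012 exonic copies (0.395%). The NPC set had 6 of 666 intergenic, 3 of 3306 intronic and 0 of 1696 exonic copies. Uniquely mapped reads were counted on copies without regard to strand, so that reads from a gene and from a copy on either strand of it cannot be told apart. Among intergenic copies, the upregulated ones of Emx1-Cre cortex lay a median of 6.32 kb from the nearest gene, with 23 of 34 (67.6%) within 10 kb, and the other tested copies 1.65 kb, with 92.7% within 10 kb. In NPCs the medians were 9.77 kb (6 copies) and 1.85 kb.

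The genes that overlap or lie nearest to the upregulated copies changed in few cases. In Emx1-Cre cortex this gene could be tested for 42 of 59 copies and was called up for 2 (4.76%, beside 0.0621% for the other tested B2 copies and 1.32% of all genes called in either direction). These were Slco1a5, with a log2 fold change of 4.98 (SE 0.484, adjusted p = 1.38e-04), and Gm40123, with 2.15 (SE 0.27, adjusted p = 0.00108). In NPCs the gene could be tested for 5 of 9 copies and was called up for 1, Fbxw19, an F-box gene 2.73 kb from B3_dup78091, which rose by 10.46 (SE 0.72, adjusted p = 0.00361), with 0.194% of all genes called in either direction. No gene near the Cas9-GFP copies (11 tested) or the Trim28-flox copies (1 tested) was called, where 0.0% and 0.0409% of all genes were. For the copies at B4galt5 and Pgbd5 the gene changed by 0.06 and -0.32 in Emx1-Cre cortex and neither was called.

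LTR copies upregulated in the same experiment lay close to few of the upregulated B2 copies. In Emx1-Cre cortex, with 185 LTR copies upregulated of 3394 tested, 5 of 59 upregulated B2 copies (8.47%) had such an LTR copy within 10 kb, beside 7 of 1687 other tested B2 copies (0.415%). Within 50 kb these shares were 11.9% and 1.13%, and 52 of the 59 had no upregulated LTR copy within 50 kb. Of 972593 annotated LTR copies only the 3394 with enough reads could be called there, so these distances leave out the untested ones. In NPCs, with 96 LTR copies upregulated of 6832 tested, 1 of 9 upregulated B2 copies (11.1%) and 8 of 5659 others (0.141%) had such a copy within 10 kb, and 7 of the 9 had none within 50 kb. None of the 11 Cas9-GFP copies did (44 LTR copies upregulated), and in the Trim28-flox experiment edgeR called no LTR copy. With DESeq2 calls, 5 of 26 upregulated B2 copies in NPCs (19.2%, 145 LTR copies called) lay within 10 kb of an LTR copy called in the same direction. This held for 5 of 43 upregulated copies in Emx1-Cre cortex (11.6%, 168 LTR copies called). It also held for 4 of 11 lower ones in the Trim28-flox experiment (36.4%, 8 LTR copies called lower). The share among the other tested B2 copies was not computed with DESeq2 calls.

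All 5 of the copies near an upregulated LTR copy in Emx1-Cre cortex belonged to B3 or B3A, and 4 of these 5 lay on the strand opposite to the LTR copy; they are named here after their values were seen. B3_dup136759 was 0.302 kb from an ORR1D1 copy and 2.68 kb from the class I histocompatibility gene H2-K1, B3_dup71023 was 0.984 kb from an MTD copy, B3A_dup16296 was 1.79 kb from an RLTR10C copy, B3_dup71024 was 3.73 kb from an MTEa copy and B3_dup54414 was 8.01 kb from an MTEb copy. The 49 upregulated copies of B2_Mm1a, B2_Mm1t and B2_Mm2 thus had no LTR copy called up within 10 kb. In NPCs the copy was again a B3 element, B3_dup78091, 3.27 kb from an RMER17D2 copy that rose by 7.91. Measured to any annotated LTR copy, whether transcribed or not, the upregulated B2 copies of Emx1-Cre cortex lay at a median of 0.974 kb and the other tested ones at 1.76 kb. In NPCs these medians were 1.08 and 2.15 kb, and in Cas9-GFP nuclei they went the other way, at 4.13 and 1.94 kb.

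**Figure D5:**
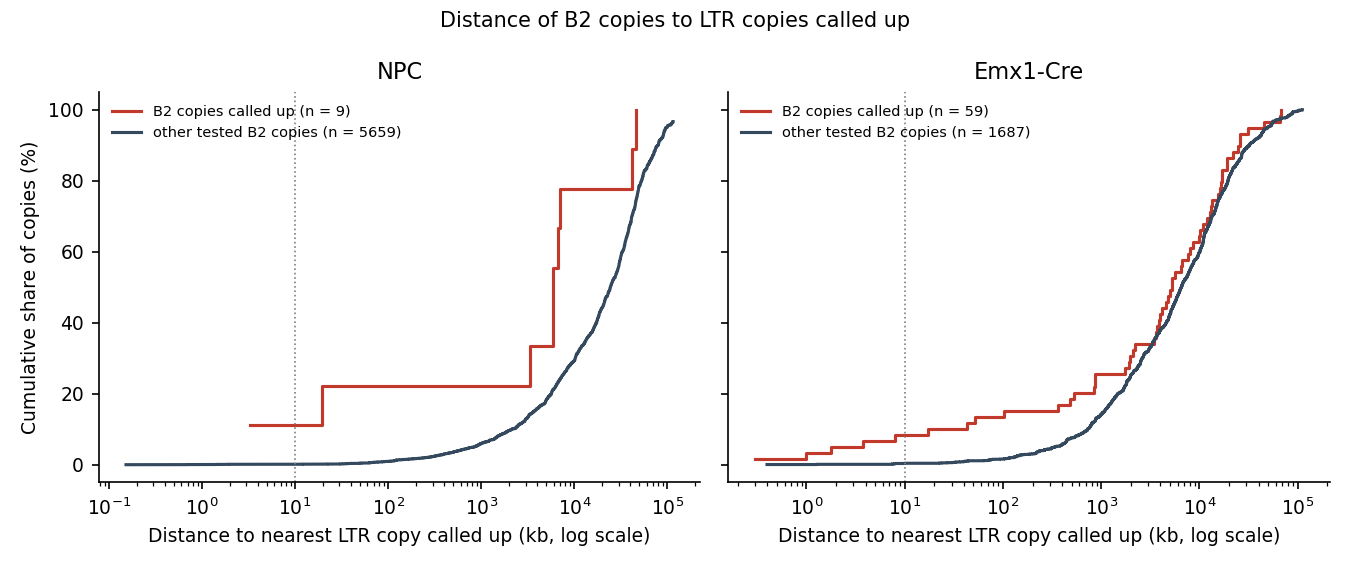
Cumulative share of B2 copies (%) by distance to the nearest LTR copy called up in the same experiment (kb, log axis, distances under 0.1 kb drawn at 0.1), in NPCs (left) and Emx1-Cre cortex (right), for B2 copies called up and other tested B2 copies; the dotted line marks 10 kb. At 10 kb the curve of the called copies stands at 8.47% in Emx1-Cre cortex, and 52 of 59 copies lie beyond 50 kb.

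The copies upregulated in Emx1-Cre cortex shared sequence features that their counts did not use. The A box letters were found in 86.4% of the 59 copies, beside 50.2% of the 1746 tested copies, the B box letters in 84.7% beside 43.5%, and AATAAA in 84.7% beside 51.8%, while a run of TTTT was found in 27.1% beside 27.5%. The mix of subfamilies moved with these shares: 25 of the 59 copies were B2_Mm1a, in which 80.1% of all copies hold the A box letters, and its part was not tested. In NPCs 7 of 9 copies held the A box letters and 7 of 9 the B box letters, beside 50.3% and 46.9% of tested copies, and in Cas9-GFP nuclei 6 of 11 and 5 of 11, beside 41.9% and 35.1%. With NGG required after the A box letters, the shares were 72.9% of the 59 copies beside 30.7% of those tested in Emx1-Cre cortex, 6 of 9 beside 31.9% in NPCs and 0 of 11 beside 22.8% in Cas9-GFP nuclei.

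Genes that transcribe or silence B2 elements were followed as lists. None of the 11 RNA polymerase III subunits, the 10 genes of TFIIIB, TFIIIC and the repressor Maf1, or Ssb, which encodes the La protein that binds RNA polymerase III transcripts, was called in either direction in any experiment, where 0.0% to 1.32% of all genes were, so that a count of 0 in lists of this size is near the background. The same held for 11 silencing genes, which included Setdb1, the histone methyltransferases Suv39h1 and Suv39h2 and the HP1 genes Cbx1, Cbx3 and Cbx5, and for the insulator factor Ctcf. List medians of the log2 fold change lay between -0.24 and 0.22 over all experiments. In Emx1-Cre cortex they were 0.0 for the polymerase subunits, -0.01 for the TFIIIB and TFIIIC list and 0.09 for the silencing list. Setdb1 was at 28.9 ± 1.9 CPM in Trim28-KO and 25.8 ± 1.12 CPM in control cortex (SD, n = 3 each, log2 fold change 0.16, SE 0.0977, adjusted p = 0.749). In these gene counts Adnp stayed under 1 CPM in every library and Uhrf1 under 1 CPM in the cortex, and neither could be tested there. Of the 11 silencing genes 10 could be tested in each of Cas9-GFP, Stop-Cas9-GFP and Trim28-flox nuclei, and 9 in Emx1-Cre cortex. Whether the low Adnp counts reflect its expression was not tested.

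Markers of cell types were read beside these results, and those of the labelled cells were found. Progenitor markers summed to 3608 to 7547 CPM in NPC libraries, with Fabp7 the most abundant. Neuronal markers summed to 2177 to 3356 CPM in the 3 experiments on adult neurons, with Syt1 or Camk2a the most abundant. Markers of other cell types had reads too. Oligodendrocyte markers summed to 265 to 396 CPM in Cas9-GFP, 144 to 255 CPM in Stop-Cas9-GFP and 116 to 190.3 CPM in Trim28-flox nuclei. Astrocyte markers summed to 118 to 432 CPM in NPC libraries. In Emx1-Cre cortex, neuronal markers summed to 9167, 10110.3 and 10147 CPM in Trim28-KO and 10321, 10568 and 10906 CPM in controls, and the 4 oligodendrocyte markers to 2056, 2088 and 2207 CPM against 2551, 2557 and 2754 CPM. Both sums were lower in all 3 Trim28-KO libraries, and no gene of either list was called, beside 1.32% of all genes called in either direction. The 5 meningeal and mural markers summed to 7.95, 9.73 and 14.1 CPM against 19.0, 20.0 and 22.9 CPM, with Dcn the most abundant and Igf2 under 1 CPM throughout, and the collagen gene Col1a2 (-1.08, adjusted p = 0.0241) and the transporter gene Slc22a6 (-1.59, adjusted p = 0.0205) were downregulated. Of 7 progenitor markers Fabp7, a fatty acid binding protein gene also made by glia, was upregulated (1.02, SE 0.136, adjusted p = 0.00184), and the list summed to 112, 125 and 142 CPM against 88.4, 92.1 and 95.2 CPM. The part of these cell type markers in the B2 results was not tested.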

How the data were processed

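Counts were used as the authors deposited them: RNA libraries (polyadenylated, stranded, 2 × 150 bases) were aligned with STAR 2.6.0 to GRCm38, uniquely mapped reads were counted on genes and individual TE copies with featureCounts (Subread 1.6.3), and multi-mapping reads on TE subfamilies with TEtranscripts, so both tables hold raw counts. Counts of TE copies do not separate strands. Counting unique reads alone lowers the counts of young, near-identical copies, whose reads often map to several places.

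Members, gene lists and tests were chosen with earlier results of these data known. Each experiment was fitted alone with edgeR 4.0.16 (quasi-likelihood, TMM, low counts removed by filterByExpr) in R 4.3.3, except for the differences between experiments. Those took in 221492 TE copies, some of which were tested in neither experiment alone, such as B2_Mm2_dup13946 in the Trim28-flox and Emx1-Cre experiments. For copies, library sizes came from the genes. Changes were called at a Benjamini-Hochberg adjusted p under 0.05 over all tested copies and a log2 fold change beyond 0.5; SE is the absolute log2 fold change divided by the root of the F statistic. A group without reads was given 3 counts per library for a lower bound, and 95% intervals of read ratios cover counting error only. Named copies were the 8 largest non-overlapping changes per direction and experiment, and copies called alike in 2 experiments. DESeq2 1.42.0, other scalings, no filter, a block for number series and omission of each library were alternatives, but the single controls were never omitted. The series were added after seeing the data. The A box was first searched with NGG after its letters, and the shorter letters were chosen after those values had been seen, so both are given. NPC libraries of the high number series deviated together from the means of their guides, which the low series mirrors (r over genes 0.532 to 0.706 in 6 pairs), so the block is given in the report. The 6 columns of the TE table that match no sample were not used, and CUT&RUN and single-nuclei samples were not analysed here. Count columns of the Stop-Cas9-GFP libraries are named flexcas, and their match to the samples titled stopcas was inferred from the names. Sums were compared with exact permutation tests (SciPy 1.17.1).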

Additional observations from a re-analysis of the deposited data

Results flagged for a closer look

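In 72 groups of 4 to 10 libraries checked for a value far from the others, 16 such values were found. Chance alone marks about 1 independent group in 20, but these groups share libraries, so the 16 cannot be compared with that rate. The 8 in NPCs were all the high-series Trim28-KO library of guide 13, which was also the shallowest NPC library (9996885 gene counts) and had 18.1% of its TE reads on B2 copies. It held 15449 CPM over all B2 copies (next 12674) and 3257 CPM over intergenic B2 copies (next 1585). Among subfamilies, B2_Mm1a was at 92945 (next 36401) and B2_Mm1t at 50362 (next 22734) CPM of TE counts. Among copies, B2_Mm1a_dup15244 was at 12.6, B2_Mm1t_dup19462 at 12.3, B2_Mm1t_dup19503 at 37.3 and B2_Mm2_dup13946 at 6.05 CPM. The part of depth in these values was not tested.

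In the Trim28-flox experiment, a library labelled control was low for exonic B2 copies (5437 CPM, next 5629) and another, of the 2 libraries outside the main number series, high for intergenic ones (2762 CPM, next 1847). The other of these 2, labelled Trim28-KO, was low for B3 (31791, next 45766) and B3A (17007, next 24039.8 CPM of TE counts). B2_Mm1t_dup19503 in a library labelled Trim28-KO (0.111 CPM) and B2_Mm2_dup57102 in another (0.095 CPM) stood apart because the other libraries of that label had no read. In Cas9-GFP nuclei, B3_dup139736 was at 0.365 CPM in the guide 13 library (next 6.6) and B3_dup139764 at 7.67 CPM in the library of all 3 guides (next 2.19).

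Tested as a difference, the labelled change in the Trim28-flox experiment was lower than in Emx1-Cre cortex (log2 scale, adjusted p from edgeR) for B2_Mm1a_dup15244 (-9.47, 1.08e-05), B2_Mm1a_dup16531 (-9.56, 0.0108), B2_Mm1t_dup19462 (-7.99, 7.67e-16), B2_Mm1t_dup19503 (-13.44, 5.84e-31), B2_Mm2_dup13946 (-9.63, 0.00861), B2_Mm2_dup57102 (-11.83, 8.31e-18), B2_Mm2_dup62190 (-13.06, 2.27e-14), B2_Mm2_dup62833 (-12.0, 5.52e-04), B3_dup71023 (-11.45, 4.29e-14) and B3_dup71029 (-9.67, 0.0153). It was higher for B2_Mm1a_dup6686 (11.09, 5.69e-04), B2_Mm1a_dup6729 (13.33, 6.08e-11) and Trim28 (3.69, 8.8e-11). The NPC change was higher than that of Emx1-Cre cortex for B2_Mm1a_dup6729 (8.51, 0.00168). The Trim28-flox differences follow labels that the Trim28 level goes against, and they hold for the labels only. Fitted differences of copies without reads in a group depend on the prior count and are no bounds.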

How the results depend on the processing

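The upregulated B2 copies of Emx1-Cre cortex (59) numbered 47 to 81 without a single library, 43 with DESeq2, 99 without a filter and 34 among intergenic copies alone; the downregulated ones (4) numbered 2 to 5, 3 with DESeq2, and 0 among intergenic copies. The NPC count (9) was 1 to 27 without a library, 26 with DESeq2, 52 without a filter, 48 with the replicate block, 31 within the low and 90 within the high number series, the high one also with 1 downregulated copy. The Cas9-GFP count (11) was 5 to 105 without a library, 14 with DESeq2, 4 without a filter and 0 among intergenic copies. Downregulated Cas9-GFP copies (0) numbered 0 to 8 without a library, and 1 with TE scaling. Stop-Cas9-GFP gave 1 upregulated copy without a filter. The labelled Trim28-flox experiment (3 downregulated) gave 0 to 5 without a library, 11 with DESeq2, 10 without a filter, 11 with the replicate block and 12 within the 6 consecutively numbered libraries, and 1 upregulated copy without a filter; the pair outside these 6 deviated together from the group means (r = 0.585 over genes).

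Trim28 in NPCs was -2.0 to -1.62 without a library, past the threshold in 2 of 8, and -1.73 within the low series; in Stop-Cas9-GFP it was 0.0 with median-ratio scaling and -0.1 to 0.07 without a library. Of the Emx1-Cre subfamilies 1 was called on the gene scale, 1 with median-ratio scaling, and 0 to 1 without a library.

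Small subfamily changes turned sign. On the gene scale, which moves the median of all TE subfamilies from -0.01 to 0.3 in NPCs and from 0.04 to 0.36 in Cas9-GFP, B3 and B3A were 0.21 and 0.16 in NPCs, and the 5 Cas9-GFP subfamilies 0.2, 0.25, 0.23, 0.29 and 0.22; B3 was 0.09 in Stop-Cas9-GFP, B3 and B3A 0.03 and 0.03 in Trim28-flox and 0.03 and 0.05 in Emx1-Cre. Sums of unique reads gave -0.05 for B2_Mm1a and -0.09 for B2_Mm1t in Stop-Cas9-GFP, and 0.02 and 0.0 for B3 and B3A in Trim28-flox (0.01 for B3A within the 6 libraries). B2_Mm1t in Stop-Cas9-GFP was 0.0 with median-ratio scaling. Without a library B2_Mm1a, B2_Mm1t and B3 were -0.03 to 0.09, -0.05 to 0.04 and -0.04 to 0.02 in Stop-Cas9-GFP, and B3 and B3A -0.12 to 0.1 and -0.09 to 0.1 in Trim28-flox. Scaled to TE counts, exonic sums were -0.07 in NPCs, -0.07 in Cas9-GFP and -0.08 in Stop-Cas9-GFP, the Stop-Cas9-GFP total was -0.01 and the Trim28-flox intronic sum -0.02. Without a library, exonic sums were -0.03 to 0.03 in Stop-Cas9-GFP and -0.05 to 0.04 in Emx1-Cre, and Trim28-flox sums -0.05 to 0.12 (intronic), -0.12 to 0.13 (intergenic, 0.02 within the 6 libraries) and -0.01 to 0.09 (total). With DESeq2 calls, 0.0% of downregulated Emx1-Cre copies lay within 10 kb of a called LTR copy, in place of 25%. The cause was not tested. Few copies had enough reads to be tested: 1746 of 349886 B2 copies passed in Emx1-Cre cortex, where libraries held 86329 to 172217 B2 reads, and 16204 in Stop-Cas9-GFP nuclei, with 253907 to 339086; RNA source and group sizes differ as well, and their part was not tested. Requiring NGG after the A box letters lowered the share of Cas9-GFP copies that hold them from 6 of 11 to 0 of 11.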
